A study of Mus musculus with 44 samples.

Results

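Chemokine ligands are small secreted or membrane-tethered proteins that guide leukocytes, and 36 of their genes were measured here in macrophages (MFs) of injured mouse muscle. The 36 genes are those with a symbol of the Ccl or Cxcl type, or Cx3cl1, Xcl1, Pf4 or Ppbp, and a probe set that carries no other gene symbol. They make up 36 of the 19938 genes tested on the arrays. The rule found 41 probe sets, and each gene was read from its probe set of highest mean, a choice that arose only for Ccl19 and Ccl25. The tibialis anterior muscle of each mouse had been injected with cardiotoxin, a snake toxin that destroys muscle fibres, and CD45+ leukocytes were enriched on beads and sorted by Ly6C, which marks inflammatory monocytes, and by the F4/80low or F4/80high state of a protein that Adgre1 encodes and that marks mature MFs. MFs from day 1 and day 4 carried the label Ly6C+ F4/80low, and day 2 gave both this population and Ly6C- F4/80high MFs. Knockout (KO) mice were C57B6/J with a PPARg fl/fl allele and LysM Cre, a Cre recombinase inserted at Lyz2 that acts in myeloid cells, and wild-type (WT) mice were C57B6/J. The KO groups had 4 arrays at day 1, 5 in each day 2 subset and 4 at day 4. Rosiglitazone, a drug that activates the lipid receptor PPARγ, was given to WT mice sampled at day 2, with 3 arrays per subset and no dose in the labels. The other WT groups, all non-treated like the KO groups, had 4 arrays at day 1, 6 in each day 2 subset and 4 at day 4. The labels call the arrays biological replicates without naming animals, so the p-values measure the spread between arrays.

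Chemokines bind G protein-coupled receptors on leukocytes, and the pattern of conserved cysteines at their N terminus divides them into CC, CXC, CX3C and XC ligands. In injured muscle the ligands of CXCR2 draw neutrophils and the ligands of CCR2 draw Ly6C+ monocytes, which become MFs within the tissue. Other ligands are induced by interferons and attract T and NK cells, or keep lymphocytes in lymphoid tissue without injury.

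The arrays were checked against their labels before the chemokines were read, all on the log2 scale of the deposited values. Adgre1 averaged 12.07 ± 0.03 in KO and 12.08 ± 0.08 in WT Ly6C- MFs of day 2, against 11.53 ± 0.10 in KO and 11.53 ± 0.11 in WT Ly6C+ MFs (SD, n = 5, 6, 5 and 6). The day 4 arrays, though labelled F4/80low, averaged 12.27 ± 0.09 in KO and 12.27 ± 0.06 in WT (SD, n = 4 each). A probe set shared by Ly6c2 and Ly6c1 was at 9.21 to 10.78 over these 8 arrays, though they are labelled Ly6C+, against 8.61 to 9.55 in Ly6C- and 11.74 to 12.17 in Ly6C+ MFs of day 2. The day 4 arrays lay below the Ly6C+ range and partly within the Ly6C- range, so they were set against both day 2 subsets. Pparg, the targeted gene, averaged 9.31 ± 0.23 in KO and 9.21 ± 0.07 in WT at day 1, 10.38 ± 0.20 and 10.38 ± 0.23 in Ly6C- and 10.39 ± 0.13 and 10.31 ± 0.38 in Ly6C+ MFs of day 2, and 10.18 ± 0.18 and 9.94 ± 0.07 at day 4 (SD, n as above). Which exons its probe set reads is not given in the sources used here, so these overlapping levels do not check the deletion. Lyz2, the gene that carries Cre, averaged 9.72 ± 0.06 in KO against 12.95 ± 0.12 in WT at day 1 (SD, n = 4 each). Among WT day 2 arrays it averaged 9.18 ± 0.10 in replicates 1 to 3 and 12.86 ± 0.09 in replicates 4 to 6 of the Ly6C- subset, and 8.87 ± 0.17 and 12.81 ± 0.19 in the Ly6C+ subset (SD, n = 3 each). Replicates 1 to 3 labelled WT therefore had the low Lyz2 level of the KO arrays. The rosiglitazone arrays had 12.86 to 13.19, near replicates 4 to 6. Lyz1 ran the other way in WT day 2 arrays, at 11.84 to 12.22 in replicates 1 to 3 and 9.95 to 10.75 in 4 to 6. Each comparison of the chemokine ligands that uses WT day 2 is also given for either set. Of the 36 chemokine ligands, 3 were higher and 8 were lower in replicates 1 to 3 than in 4 to 6 over both subsets, where 20.8% of all genes passed in either direction.

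Most of the genes that moved furthest sit in clusters. In the coordinates of GRCm38.p6, the CXC cluster of chromosome 5 ran from Cxcl5 (chr5:90759298-90761625) over Ppbp, Pf4, Cxcl3, Cxcl15 and Cxcl1 to Cxcl2 (chr5:90903899-90905938), with Cxcl9, Cxcl10 and Cxcl11 further along the chromosome between Cxcl9 (chr5:92321331-92328079) and Cxcl11 (chr5:92359544-92363296). Chromosome 11 held a CC cluster from Ccl2 (chr11:82035577-82037452) over Ccl7, Ccl11, Ccl12 and Ccl8 to Ccl1, and another with Ccl5, Ccl9, Ccl6, Ccl3 and Ccl4 (chr11:83648624-83664683). RefSeq promoter sequences of GRCm38.p6, from 250 bases before to 50 after each gene's start, were matched to 25 of the 36 genes and searched on both strands for GGANTTTCC (a form of the NF-kB motif), GAAANNGAA (the core of interferon response elements), TTCNNNGAA (a STAT motif) and TGANTCA (an AP-1 motif). The first occurred in 4 of the 25, namely Cxcl1, Cxcl2, Cxcl3 and Cxcl10, and in 1.25% of 32851 promoters of the same length. The interferon motif occurred in 6 of 25 (Ccl1, Ccl3, Ccl19, Cxcl9, Cxcl10 and Cxcl14) and in 8.56% of all promoters, the STAT motif in 2 of 25 (Ccl17 and Cxcl14) and 8.30%, and the AP-1 motif in 5 of 25 (Ccl9, Ccl28, Cxcl9, Cxcl10 and Ppbp) and 7.81%. No match overlapped a match of another motif in these genes. The bases just before the start are shown for the CXCR2 ligands Cxcl1, Cxcl2 and Cxcl3, for their cluster neighbour Ppbp, also far lower at day 4 than at day 1, and for the CXCR3 ligands Cxcl9 and Cxcl10, whose courses differed from theirs. Capitals mark the matches.
Cxcl1, 150 bases before the start (chr5:90891095-90891244, plus strand, GRCm38.p6): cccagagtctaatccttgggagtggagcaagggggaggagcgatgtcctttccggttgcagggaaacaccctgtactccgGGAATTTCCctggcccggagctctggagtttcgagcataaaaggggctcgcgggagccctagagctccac
Cxcl2, 150 bases before the start (chr5:90903749-90903898, plus strand, GRCm38.p6): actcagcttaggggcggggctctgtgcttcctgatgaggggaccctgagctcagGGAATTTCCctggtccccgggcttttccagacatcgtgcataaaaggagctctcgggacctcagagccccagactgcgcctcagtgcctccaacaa
Cxcl3, 150 bases before the start (chr5:90785951-90786100, plus strand, GRCm38.p6): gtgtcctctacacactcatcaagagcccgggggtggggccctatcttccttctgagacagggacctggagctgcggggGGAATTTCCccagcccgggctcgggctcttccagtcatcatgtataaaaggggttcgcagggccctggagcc
Ppbp, 250 bases before the start (chr5:90768268-90768517, plus strand, GRCm38.p6): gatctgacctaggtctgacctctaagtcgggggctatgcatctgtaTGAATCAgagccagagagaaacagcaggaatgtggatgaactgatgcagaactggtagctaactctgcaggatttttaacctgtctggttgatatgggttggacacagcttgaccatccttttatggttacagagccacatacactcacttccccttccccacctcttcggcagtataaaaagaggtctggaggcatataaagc
Cxcl9, 250 bases before the start (chr5:92328080-92328329, minus strand, GRCm38.p6): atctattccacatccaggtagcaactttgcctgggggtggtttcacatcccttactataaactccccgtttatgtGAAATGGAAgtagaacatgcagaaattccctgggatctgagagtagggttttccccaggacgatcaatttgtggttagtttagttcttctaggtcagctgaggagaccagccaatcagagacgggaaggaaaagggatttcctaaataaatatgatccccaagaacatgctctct
Cxcl10, 250 bases before the start (chr5:92348890-92349139, minus strand, GRCm38.p6): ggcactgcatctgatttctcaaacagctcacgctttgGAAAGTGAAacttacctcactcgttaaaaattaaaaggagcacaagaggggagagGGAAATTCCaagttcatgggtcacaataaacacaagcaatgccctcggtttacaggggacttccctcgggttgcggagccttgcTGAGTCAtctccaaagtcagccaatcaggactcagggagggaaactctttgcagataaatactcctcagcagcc
The matches in Cxcl1, Cxcl2 and Cxcl3 read GGAATTTCC and begin at positions -70, -96 and -72 from the start. The match in Cxcl9 is to the interferon motif, the match in Ppbp is to the AP-1 motif, and Cxcl10 holds the interferon, NF-kB and AP-1 motifs in this order. Forms of the NF-kB motif other than GGANTTTCC were not searched, so the unmarked bases are not shown to lack them.

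The CXCR2 ligands were highest at day 1 and lowest at day 4. Cxcl3, a CXC ligand that recruits neutrophils, had the widest range of all members, with log2 values of 11.19, 11.12, 11.42 and 11.37 in KO and 11.33, 11.69, 11.56 and 11.61 in WT arrays of day 1. In Ly6C- MFs of day 2 it had 7.31, 8.80 and 9.25 with rosiglitazone, 9.21, 9.01, 9.31, 9.10 and 10.23 in KO and a lowest, median and highest of 8.21, 9.26 and 9.61 in WT. In Ly6C+ MFs of day 2 it had 8.31, 8.90 and 8.94 with rosiglitazone, 9.46, 9.32, 10.001, 9.94 and 10.41 in KO and 8.65, 9.39 and 9.58 as lowest, median and highest in WT, and the day 4 arrays had 5.60, 5.26, 6.02 and 6.24 in KO and 5.41, 5.63, 5.82 and 5.68 in WT. No day 2 array reached the lowest day 1 array, and no day 4 array reached the lowest day 2 array. Ppbp encodes the precursor of a CXCR2 ligand that platelets store. It had 12.58, 12.60, 12.87 and 12.88 in KO and 12.77, 12.96, 12.72 and 12.83 in WT at day 1. Its Ly6C- arrays of day 2 had 10.62, 11.75 and 12.23 with rosiglitazone, 12.04, 11.94, 12.40, 12.34 and 12.65 in KO and 10.89, 11.55 and 12.18 as lowest, median and highest in WT. Its Ly6C+ arrays of day 2 had 11.49, 10.998 and 12.07 with rosiglitazone, 12.23, 12.07, 12.55, 12.43 and 12.37 in KO and 10.99, 11.68 and 11.98 as lowest, median and highest in WT, and the day 4 arrays had 9.37, 9.24, 9.73 and 9.32 in KO and 8.56, 8.21, 8.46 and 7.86 in WT. All day 4 arrays of Ppbp were below all others, and the 4 KO arrays of day 4 were above the 4 WT arrays.

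Cxcl1, a CXCR2 ligand long known as KC, had 11.55, 11.64, 11.80 and 11.14 in KO and 11.55, 11.80, 11.58 and 11.89 in WT at day 1. Among Ly6C- arrays of day 2 the values were 9.43, 10.15 and 11.14 with rosiglitazone, 10.91, 10.95, 11.09, 10.80 and 11.38 in KO and 9.91, 10.69 and 11.27 as lowest, median and highest in WT. Among Ly6C+ arrays they were 9.44, 10.31 and 9.70 with rosiglitazone, 10.63, 10.78, 11.12, 10.95 and 11.05 in KO and 9.31, 10.06 and 11.07 as lowest, median and highest in WT, and the day 4 arrays had 8.45, 8.41, 8.84 and 8.77 in KO and 8.25, 8.17, 8.69 and 8.48 in WT. Day 4 arrays were again below every other array, while the days 1 and 2 overlapped in KO, whose Ly6C- arrays reached 11.38. Cxcl2, also called MIP-2, had 13.01, 12.96, 12.98 and 13.02 in KO and 12.97, 12.99, 12.96 and 13.03 in WT at day 1. The day 2 values of Cxcl2 in Ly6C- MFs were 12.29, 12.32 and 12.53 with rosiglitazone, 12.62, 12.61, 12.61, 12.64 and 12.78 in KO and 12.09, 12.21 and 12.71 as lowest, median and highest in WT. Those in Ly6C+ MFs were 12.69, 12.74 and 12.75 with rosiglitazone, 12.74, 12.85, 12.74, 12.85 and 12.78 in KO and 12.23, 12.47 and 12.76 as lowest, median and highest in WT, and the day 4 arrays had 10.71, 11.07, 11.56 and 11.27 in KO and 10.02, 9.45, 11.19 and 10.95 in WT. The 3 days did not overlap for Cxcl2, and all day 1 arrays lay between 12.96 and 13.03. Cxcl5, another CXCR2 ligand, and Cxcl15, known from lung epithelium, stayed among the dimmest members, with group means of 4.80 to 5.32 and 4.26 to 4.80.

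**Figure D1:**
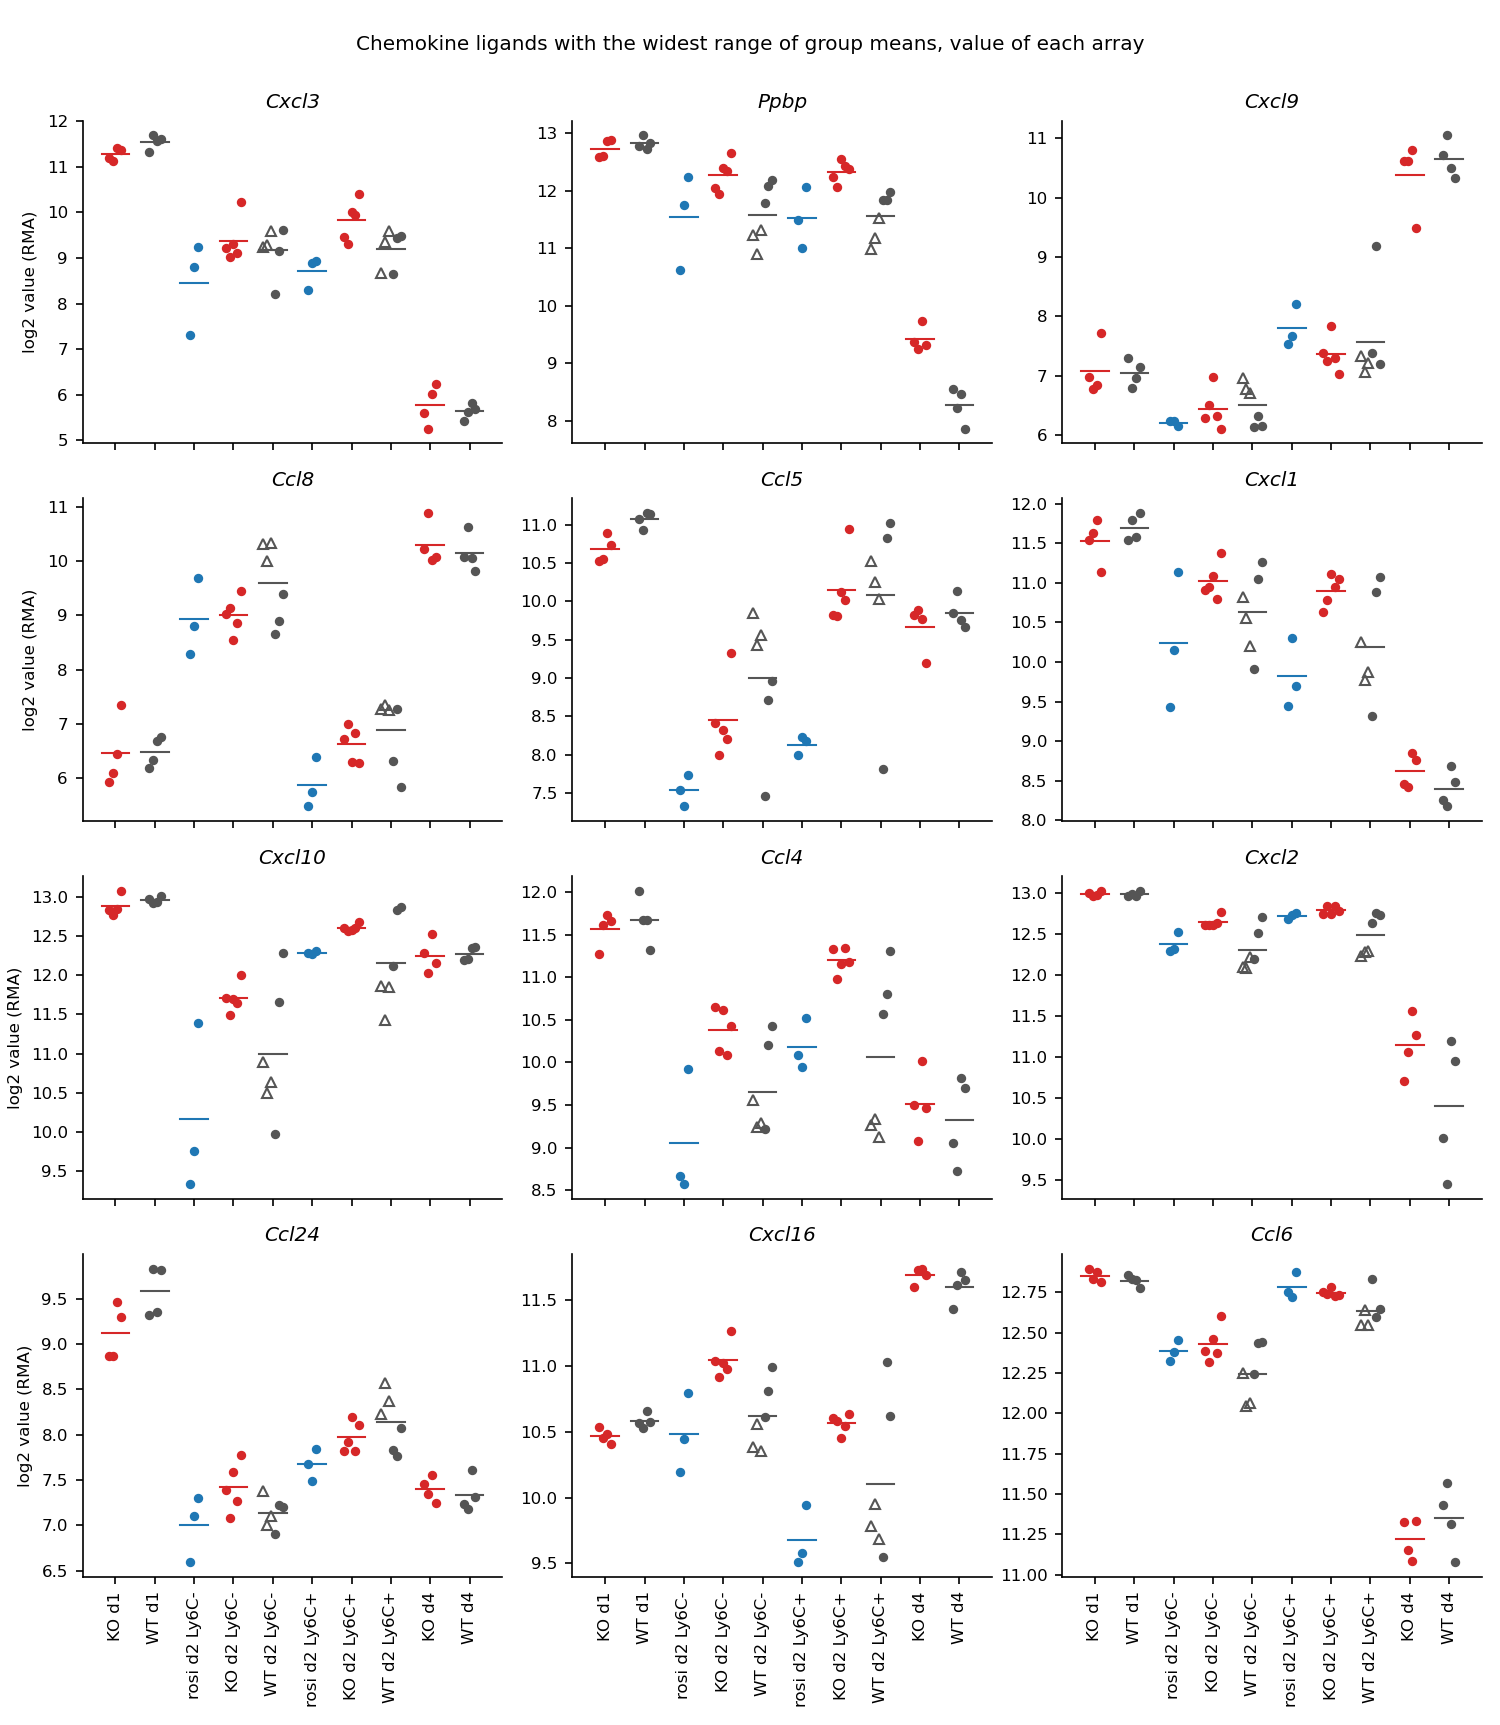
Log2 value (RMA, vertical axis) of every array for the 12 chemokine ligands with the widest range of group means, by group (horizontal axis, d1, d2 and d4 are days 1, 2 and 4). Points are arrays and bars are group means, in red for KO, blue for rosiglitazone and grey for WT, with WT day 2 replicates 1 to 3 as open triangles. Cxcl3 lies between 11.12 and 11.69 at day 1 and between 5.26 and 6.24 at day 4, while Cxcl9 lies between 9.48 and 11.05 at day 4.

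The CXCR3 ligands, which interferons induce and which attract activated T and NK cells, each followed a different course. Cxcl9 had 6.99, 6.78, 6.84 and 7.72 in KO and 7.30, 6.80, 6.97 and 7.16 in WT at day 1. Its Ly6C- arrays of day 2 had 6.24, 6.25 and 6.15 with rosiglitazone, 6.30, 6.51, 6.98, 6.32 and 6.12 in KO and 6.15, 6.52 and 6.97 as lowest, median and highest in WT. The Ly6C+ arrays of day 2 had 7.54, 7.68 and 8.21 with rosiglitazone, 7.39, 7.25, 7.84, 7.30 and 7.04 in KO and 7.06, 7.28 and 9.19 as lowest, median and highest in WT, and the day 4 arrays had 10.61, 10.62, 10.80 and 9.48 in KO and 10.72, 11.05, 10.50 and 10.32 in WT. Every day 4 array of Cxcl9 was above every earlier array, and its Ly6C- arrays were below its Ly6C+ arrays. Cxcl10 had 12.83, 12.77, 12.85 and 13.08 in KO and 12.97, 12.92, 12.94 and 13.01 in WT at day 1. Day 2 Ly6C- arrays of Cxcl10 had 9.33, 9.76 and 11.39 with rosiglitazone, 11.71, 11.49, 11.69, 11.64 and 12.01 in KO and 9.98, 10.77 and 12.28 as lowest, median and highest in WT. Day 2 Ly6C+ arrays had 12.29, 12.27 and 12.31 with rosiglitazone, 12.60, 12.56, 12.58, 12.60 and 12.67 in KO and 11.42, 11.99 and 12.86 as lowest, median and highest in WT, and the day 4 arrays had 12.28, 12.03, 12.52 and 12.15 in KO and 12.19, 12.21, 12.34 and 12.36 in WT. Cxcl10 was thus high at day 1, and its lowest arrays were Ly6C- arrays of day 2. Cxcl11 was dimmer, with group means of 6.22 to 7.28.

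Among the genes grouped here as monocyte attractants, Ccl8 stood apart from Ccl2, Ccl7 and Ccl12. Which receptor and which cells Ccl8 acts on was not tested. Ccl8, also called MCP-2, had 5.94, 6.10, 6.46 and 7.34 in KO and 6.20, 6.33, 6.68 and 6.76 in WT at day 1. It had 8.30, 8.81 and 9.69 with rosiglitazone, 9.03, 9.13, 8.55, 8.86 and 9.44 in KO and 8.65, 9.70 and 10.33 as lowest, median and highest in WT Ly6C- MFs of day 2. It had 5.48, 5.74 and 6.39 with rosiglitazone, 6.72, 7.01, 6.30, 6.83 and 6.29 in KO and 5.83, 7.26 and 7.35 as lowest, median and highest in WT Ly6C+ MFs of day 2, and the day 4 arrays had 10.22, 10.88, 10.02 and 10.08 in KO and 10.07, 10.62, 10.06 and 9.81 in WT. All Ly6C- and day 4 arrays of Ccl8 were above all day 1 and Ly6C+ day 2 arrays. Ccl2 and Ccl7, ligands of the monocyte receptor CCR2, ran the other way, at 11.18 to 11.78 and 10.99 to 11.70 over the 8 arrays of day 4 and at 12.67 to 12.86 and 12.47 to 12.72 over the 8 arrays of day 1. Ccl12, a further mouse ligand of CCR2, kept to group means of 7.83 to 8.44.

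The MIP-1 family and RANTES attract monocytes and T cells. Ccl5 (RANTES) had 10.53, 10.55, 10.89 and 10.74 in KO and 11.07, 10.93, 11.15 and 11.13 in WT at day 1. In day 2 Ly6C- MFs it had 7.54, 7.33 and 7.74 with rosiglitazone, 8.42, 7.998, 8.33, 8.21 and 9.32 in KO and 7.46, 9.19 and 9.85 as lowest, median and highest in WT. In day 2 Ly6C+ MFs it had 7.99, 8.23 and 8.18 with rosiglitazone, 9.82, 9.81, 10.13, 10.02 and 10.94 in KO and 7.82, 10.39 and 11.02 as lowest, median and highest in WT, and the day 4 arrays had 9.82, 9.88, 9.77 and 9.20 in KO and 9.85, 10.13, 9.75 and 9.66 in WT. The rosiglitazone arrays of Ccl5 were low in both subsets, and in Ly6C+ MFs the only WT array as low was replicate 4, at 7.82. Ccl4 (MIP-1 beta) had 11.28, 11.61, 11.73 and 11.67 in KO and 12.02, 11.67, 11.67 and 11.32 in WT at day 1. Ly6C- arrays of day 2 had 8.67, 8.57 and 9.92 with rosiglitazone, 10.65, 10.13, 10.61, 10.09 and 10.43 in KO and 9.22, 9.42 and 10.43 as lowest, median and highest in WT. Ly6C+ arrays of day 2 had 10.09, 9.94 and 10.52 with rosiglitazone, 11.33, 10.97, 11.16, 11.35 and 11.18 in KO and 9.12, 9.95 and 11.31 as lowest, median and highest in WT, and the day 4 arrays had 9.499, 9.08, 10.02 and 9.46 in KO and 9.06, 8.73, 9.81 and 9.70 in WT. The WT Ly6C+ arrays of Ccl4 split by replicate set, at 9.12 to 9.33 in replicates 1 to 3 and 10.56 to 11.31 in replicates 4 to 6. RefSeq places Ccl4 across the range of Ccl3, and which exons the probe sets read is not given in the sources used here.

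Ccl6, a mouse ligand of CCR1, had 12.90, 12.83, 12.88 and 12.81 in KO and 12.86, 12.83, 12.83 and 12.78 in WT at day 1. At day 2 it had 12.32, 12.38 and 12.46 with rosiglitazone, 12.38, 12.32, 12.46, 12.38 and 12.60 in KO and 12.05, 12.25 and 12.44 as lowest, median and highest in WT Ly6C- MFs. The matching Ly6C+ values were 12.75, 12.72 and 12.88 with rosiglitazone, 12.75, 12.74, 12.78, 12.73 and 12.74 in KO and 12.54, 12.62 and 12.83 as lowest, median and highest in WT, and the day 4 arrays had 11.32, 11.15, 11.09 and 11.33 in KO and 11.43, 11.57, 11.31 and 11.08 in WT. Its day 4 arrays were below every other array. Ccl9, another CCR1 ligand, was at 10.67 to 10.97 over the 8 arrays of day 4 and at 12.15 to 12.25 over the 8 arrays of day 1. Ccl3 (MIP-1 alpha) had the narrowest range of the family, with group means of 12.58 to 13.06. Ccl24, an eotaxin that attracts eosinophils through CCR3, had 8.87, 8.87, 9.46 and 9.30 in KO and 9.32, 9.83, 9.35 and 9.82 in WT at day 1. In Ly6C- arrays of day 2 Ccl24 had 6.59, 7.10 and 7.30 with rosiglitazone, 7.39, 7.08, 7.59, 7.26 and 7.78 in KO and 6.90, 7.16 and 7.38 as lowest, median and highest in WT. In Ly6C+ arrays of day 2 Ccl24 had 7.68, 7.49 and 7.85 with rosiglitazone, 7.82, 7.91, 8.20, 7.82 and 8.11 in KO and 7.76, 8.15 and 8.57 as lowest, median and highest in WT, and the day 4 arrays had 7.46, 7.35, 7.55 and 7.24 in KO and 7.24, 7.18, 7.61 and 7.31 in WT. Every day 1 array of Ccl24 was above every later array. The other eotaxins, Ccl11 and Ccl26, had group means of 7.03 to 7.44 and 5.76 to 6.03.

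Cxcl16, a transmembrane ligand of CXCR6 that also takes up oxidised lipoprotein, had 10.54, 10.45, 10.48 and 10.40 in KO and 10.57, 10.53, 10.66 and 10.57 in WT at day 1. Ly6C- MFs of day 2 had 10.19, 10.45 and 10.80 with rosiglitazone, 11.04, 10.91, 11.02, 10.97 and 11.26 in KO and 10.35, 10.59 and 10.99 as lowest, median and highest in WT. Ly6C+ MFs of day 2 had 9.51, 9.58 and 9.94 with rosiglitazone, 10.61, 10.58, 10.45, 10.55 and 10.63 in KO and 9.55, 9.87 and 11.03 as lowest, median and highest in WT, and the day 4 arrays had 11.60, 11.73, 11.74 and 11.69 in KO and 11.43, 11.61, 11.71 and 11.65 in WT. The 8 day 4 arrays of Cxcl16 were above all others. Pf4, a CXC chemokine of platelet granules, was at 11.52 to 12.02 at day 1, at 12.26 to 12.68 in the 14 Ly6C- arrays against 10.99 to 11.95 in the 14 Ly6C+ arrays of day 2, and at 11.97 to 12.27 at day 4. Summed over 7 of 10 listed platelet markers, the level ran from 9.43 to 9.88 over all arrays, and Itga2b and Gp9, which define platelets, had group means of 6.72 to 7.003 and 6.50 to 6.81. The part of platelets in the Pf4 and Ppbp values was not tested. The remaining members had narrower ranges of group means. These were Cx3cl1 (fractalkine) and Xcl1, the CCR4 ligands Ccl17 and Ccl22, the CCR8 ligand Ccl1 and the CCR6 ligand Ccl20, and the homeostatic or tissue chemokines Ccl19, Ccl25, Ccl28, Cxcl12, Cxcl13, Cxcl14 and Cxcl17. Their group means spanned 0.23 (Ccl25) to 1.08 (Cxcl14) on the log2 scale. The span of 1.06 in Cxcl13 came from 1 Ly6C- rosiglitazone array at 8.35, while the other two were at 5.11 and 5.21.

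**Figure D2:**
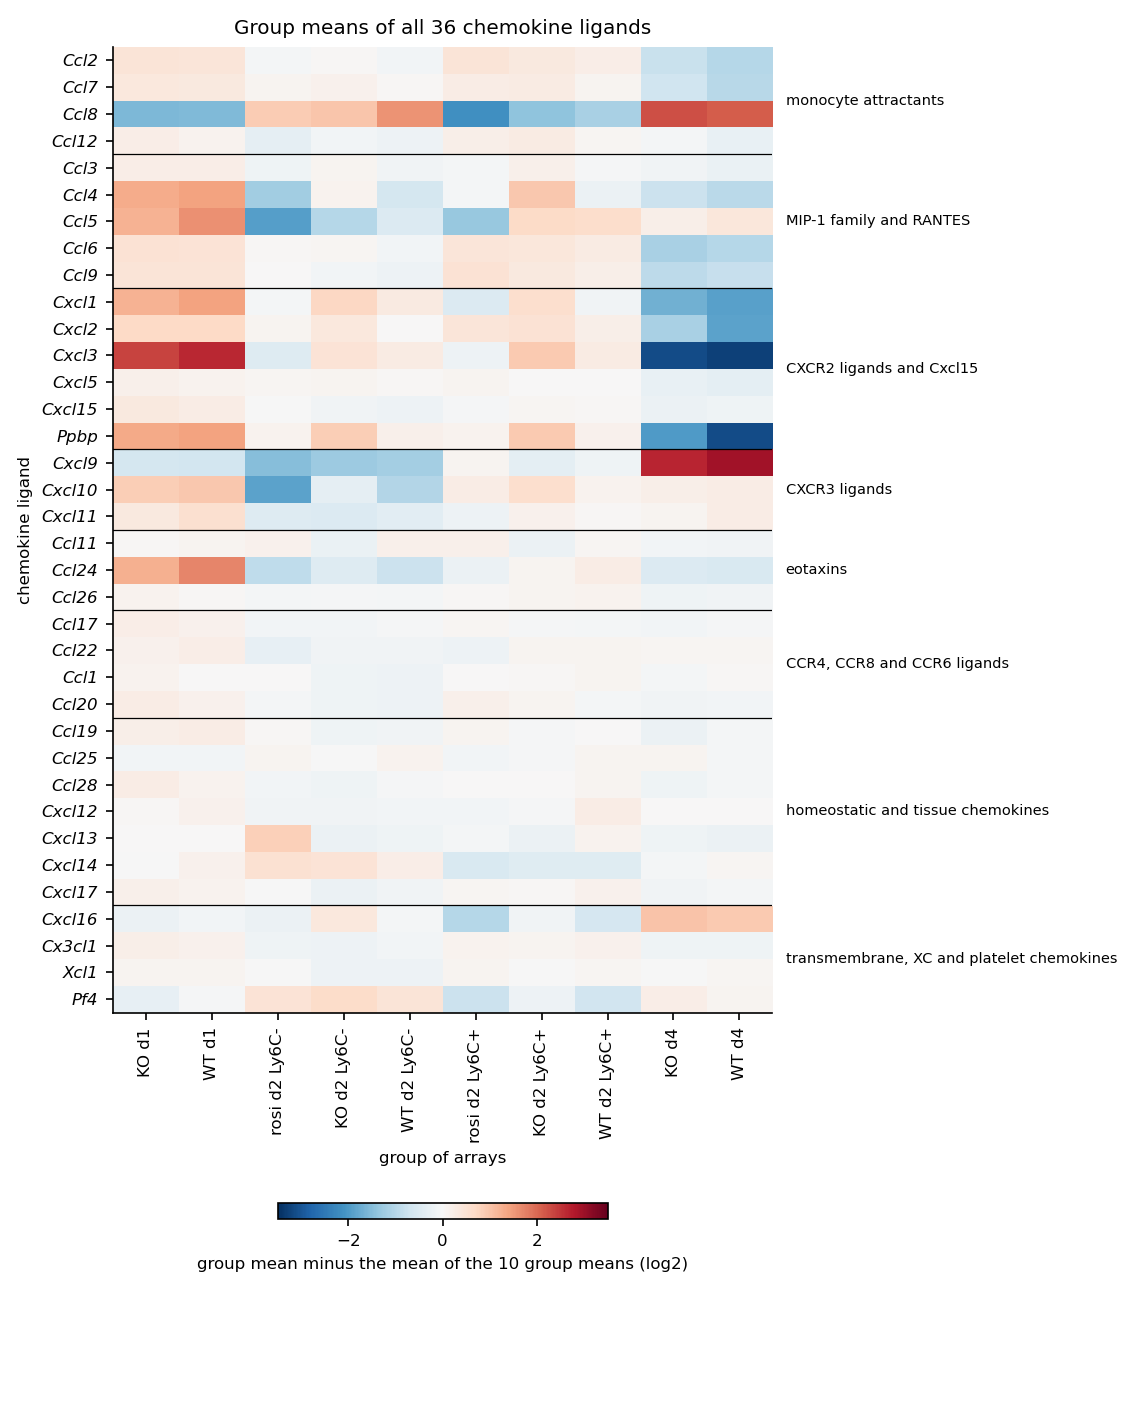
Group mean of each of the 36 chemokine ligands (rows, by role) in each of the 10 groups (columns), as the difference from that gene's mean over the 10 group means, in log2 units by colour. Red is above and blue below the gene's own mean, with Cxcl3 and Ppbp lowest and Cxcl9 and Ccl8 highest at day 4.

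The Ly6C- and Ly6C+ MFs of day 2 were compared first, as Ly6C- minus Ly6C+ within each condition. In all 3 conditions Ccl8, Pf4, Cxcl14 and Cxcl16 were higher and Cxcl9, Cxcl10, Ccl24, Ccl2, Ccl6 and Ccl9 were lower in Ly6C- MFs. With rosiglitazone (n = 3 and 3) 4 members were higher and 7 lower, while 14.6% of all genes were higher and 8.68% lower. In KO (n = 5 and 5) 4 were higher and 12 lower, while 19.8% of all genes were higher and 18.6% lower. In WT (n = 6 and 6) 4 were higher and 14 lower, while 22.2% of all genes were higher and 23% lower. The share of members that were lower, 38.9% in WT, was thus above that of all genes, and the share that were higher, 11.1% in each condition, was below it. Of those lower in WT, Ccl1, Cx3cl1, Cxcl11, Cxcl12, Cxcl15 and Xcl1 lay outside the brighter 9969 genes. The median difference over the members was -0.12 with rosiglitazone, -0.17 in KO and -0.20 in WT, against -0.04, -0.09 and -0.07 over all genes. A lower level in bulk MFs can come from fewer cells of a type or from less RNA per cell, which cannot be told apart here.

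With rosiglitazone, Ccl8 was higher by 3.06 (SE 0.39, adjusted p = 5.60e-08), Pf4 by 1.22 (SE 0.11, adjusted p = 1.42e-11), Cxcl14 by 1.08 (SE 0.17, adjusted p = 4.82e-06) and Cxcl16 by 0.80 (SE 0.21, adjusted p = 0.00313) in Ly6C- than in Ly6C+ MFs. The largest falls there were Cxcl10 at -2.13 (SE 0.36, adjusted p = 1.37e-05), Cxcl9 at -1.59 (SE 0.34, adjusted p = 0.000384), Ccl4 at -1.13 (SE 0.39, adjusted p = 0.0299), Ccl24 at -0.67 (SE 0.19, adjusted p = 0.00673) and Ccl2 at -0.54 (SE 0.14, adjusted p = 0.00343). Ccl9 and Ccl6 were lower too, at -0.52 and -0.40. The subsets did not overlap for these 11, and over all 36 members they did not overlap for 16, as for 33.3% of all genes. Ccl4 lost its call in 4 of 6 fits that left out 1 array (rosiglitazone Ly6C+ replicates 1 and 3 and Ly6C- replicates 1 and 2, adjusted p up to 0.177), and Ccl24 without Ly6C- replicate 1 (adjusted p = 0.0914).

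In KO, Ccl8 was higher by 2.38 (SE 0.30, adjusted p = 3.86e-08), Cxcl14 by 0.89 (SE 0.13, adjusted p = 1.03e-06), Pf4 by 0.83 (SE 0.09, adjusted p = 3.42e-10) and Cxcl16 by 0.48 (SE 0.16, adjusted p = 0.0177) in Ly6C- MFs. Ccl5 was lowest against Ly6C+ MFs, at -1.69 (SE 0.36, adjusted p = 0.00026), followed by Cxcl9 at -0.92 (SE 0.27, adjusted p = 0.00592), Cxcl10 at -0.89 (SE 0.28, adjusted p = 0.0118), Ccl4 at -0.82 (SE 0.30, adjusted p = 0.0305) and Cxcl11 at -0.64 (SE 0.15, adjusted p = 0.000944). Ccl24, Ccl9, Ccl6, Ccl2, Cx3cl1, Cxcl17 and Ccl20 were lower, at -0.55 (Ccl24) to -0.25 (Ccl20). Over all 36 members the subsets did not overlap for 14, as for 32.9% of all genes, and Cx3cl1 and Ccl20 overlapped. Without 1 array at a time, 5 of the calls were lost at least once, in Ccl4 (KO Ly6C+ replicates 1, 4 and 5 and Ly6C- replicates 2 and 4, adjusted p up to 0.0695), Ccl20 (Ly6C+ replicates 4 and 5, Ly6C- replicates 3 and 5, up to 0.143), Cx3cl1 (Ly6C+ replicate 5, 0.0773), Cxcl16 (Ly6C- replicate 5, 0.0534) and Cxcl17 (Ly6C+ replicate 5 and Ly6C- replicate 2, up to 0.0682).

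In WT, Ccl8 was higher by 2.71 (SE 0.28, adjusted p = 1.24e-10), Pf4 by 1.11 (SE 0.08, adjusted p = 4.07e-15), Cxcl14 by 0.65 (SE 0.12, adjusted p = 3.28e-05) and Cxcl16 by 0.52 (SE 0.15, adjusted p = 0.00427) in Ly6C- MFs. The largest falls were Cxcl10 at -1.17 (SE 0.26, adjusted p = 0.000294), Ccl5 at -1.08 (SE 0.33, adjusted p = 0.00709), Cxcl9 at -1.05 (SE 0.24, adjusted p = 0.000518), Ccl24 at -1.002 (SE 0.13, adjusted p = 7.20e-08) and Cxcl11 at -0.43 (SE 0.14, adjusted p = 0.0113). Ccl9, Ccl6, Cxcl12, Ccl2, Ccl1, Cxcl17, Xcl1, Cx3cl1 and Cxcl15 were lower, at -0.39 (Ccl9) to -0.22 (Cxcl15). The subsets did not overlap for 7 of 36 members (Ccl8, Pf4, Cxcl14, Cxcl9, Ccl24, Ccl9 and Ccl6), as for 14.8% of all genes. In a fit of only these 12 arrays 10 members passed, and Ccl2, Ccl5, Cx3cl1, Cxcl11, Cxcl12, Cxcl15, Cxcl16 and Cxcl17 did not. All 4 members that were higher in KO were also higher in WT, and 10 members were lower in both, which is 83.3% of the 12 in KO and 71.4% of the 14 in WT. With WT replicates 1 to 3 of both subsets 3 members were higher and 8 lower (34.8% of all genes passed), with replicates 4 to 6 3 were higher and 12 lower (30% passed), and 2 higher and 6 lower were shared. Ccl8 was 2.92 (adjusted p = 1.26e-09) in the first set and 2.51 (adjusted p = 4.64e-07) in the second. Cxcl9, Cxcl11 and Cxcl14 did not pass in replicates 1 to 3, at -0.38 (adjusted p = 0.235), -0.02 (adjusted p = 0.917) and 0.41 (adjusted p = 0.0587), and Cxcl16 did not in replicates 4 to 6, at 0.41 (adjusted p = 0.0971). Cxcl15 lost its call in 6 of 12 fits that left out 1 array, Cx3cl1 without Ly6C+ replicate 1 or Ly6C- replicate 6 and Cxcl11 without Ly6C+ replicate 5 (adjusted p up to 0.0865, 0.081 and 0.0602).

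By role, the CXCR3 ligands had the lowest medians among the roles. All 3 were lower in Ly6C- MFs in KO and in WT, and 2 of 3 (Cxcl9 and Cxcl10) were with rosiglitazone, at median differences of -1.59 with rosiglitazone, -0.89 in KO and -1.05 in WT. Of the MIP-1 family and Ccl5, 3 of 5 with rosiglitazone, 4 of 5 in KO and 3 of 5 in WT were lower, where 8.68%, 18.6% and 23% of all genes were lower. Of the 5 CXCR2 ligands and Cxcl15, 0 passed with rosiglitazone, 0 in KO and 1 (Cxcl15) in WT, at median differences of -0.02, -0.10 and 0.00. Markers of dendritic cells, which also make chemokines, were lower in Ly6C- MFs for 4 of 10 with rosiglitazone, 6 of 10 in KO and 5 of 10 in WT. Their summed level was 9.96 to 10.31 over the Ly6C- arrays against 10.47 to 10.83 over the Ly6C+ arrays, and that of 12 T and NK cell markers was 9.21 to 9.46 against 9.33 to 9.62. Other lists were lower too. Of 6 monocyte markers 6 were lower with rosiglitazone, 5 in KO and 5 in WT, and of 15 neutrophil markers 4, 7 and 7. In each condition 2 of the 15 were higher, S100a8 and Mmp9 with rosiglitazone, Mmp8 and Mmp9 in KO and S100a8 and Mmp8 in WT. Of 8 endothelial markers 1 was lower with rosiglitazone, 4 in KO and 7 in WT, and of 9 fibroblast markers 0, 0 and 5. The part of these cells in the chemokine differences was not tested. The difference of the subset effects was tested too. Between KO and WT 0 of 36 members passed, as did 0.01% of all genes (3 of 36 unadjusted), and between rosiglitazone and non-treated MFs 0 of 36 passed, as did 0.015% of all genes (4 of 36 unadjusted). With WT replicates 1 to 3, Cxcl12 was the 1 member that passed between rosiglitazone and non-treated MFs, with 2.67% of all genes.

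**Figure D3:**
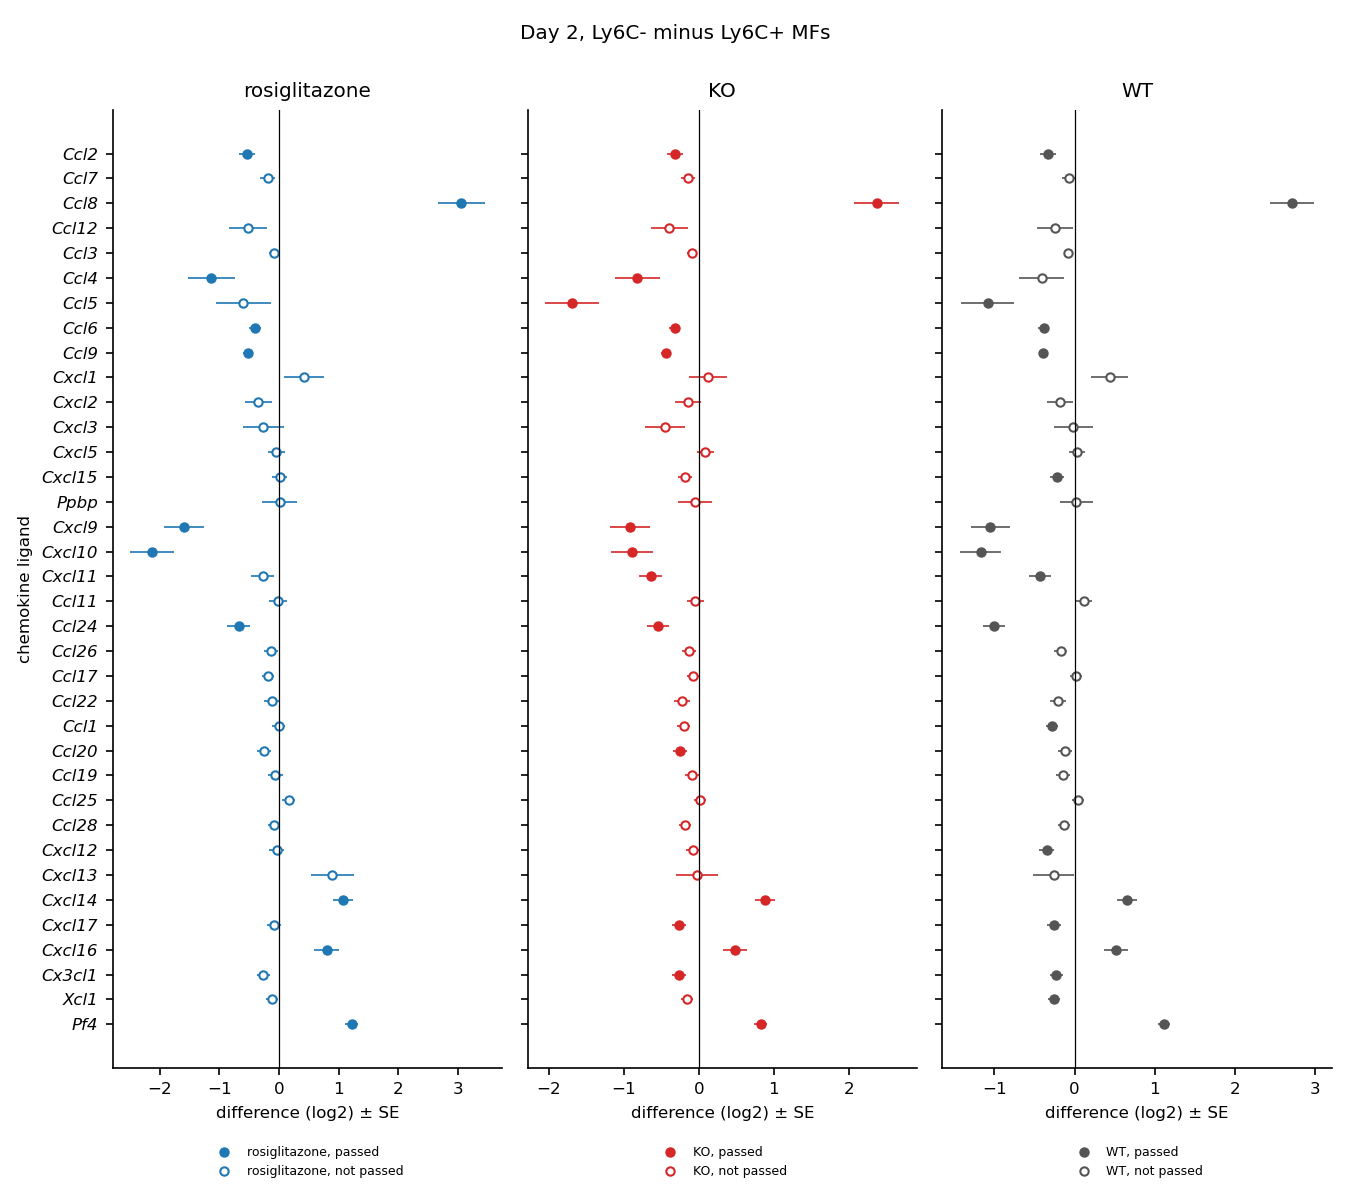
Difference Ly6C- minus Ly6C+ at day 2 for each of the 36 chemokine ligands (rows) in log2 units (horizontal axis), with rosiglitazone, in KO and in WT. Bars are the SE of the limma fit and filled points passed an adjusted p of 0.05. Ccl8 lies furthest to the right, at 3.06 with rosiglitazone, 2.38 in KO and 2.71 in WT.

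The second comparison asked how Ly6C+ MFs changed between the first days, as day 2 minus day 1. No member was higher at day 2, and Cxcl3 and Ccl24 were lower in both genotypes. In KO (n = 5 and 4) 0 members were higher (0 unadjusted in limma too) and 3 lower, while 6.06% of all genes were higher and 2.58% lower. After centring of each array on its median, 59.3% of the calls over all genes were upward, against 70.2% without it. In KO the members that fell were Cxcl3 at -1.45 (SE 0.28, adjusted p = 0.000849), Ccl24 at -1.15 (SE 0.16, adjusted p = 2.94e-06) and Ccl17 at -0.26 (SE 0.09, adjusted p = 0.0498). In KO the days did not overlap for 10 of 36 members, these 3 among them, as for 12% of all genes. The call of Ccl17 was lost in 7 of 9 fits that left out 1 array (KO day 1 replicates 1, 2 and 4 and day 2 replicates 1 to 4, adjusted p up to 0.228), and 5 members passed without KO day 2 replicate 5. In WT (n = 6 and 4) 0 members were higher (1 unadjusted) and 10 lower, while 6.51% of all genes were higher and 3.17% lower, and centring moved the upward share of all calls to 47%, against 67.2%. In WT the falls were led by Cxcl3 at -2.35 (SE 0.27, adjusted p = 5.91e-08), Ccl4 at -1.60 (SE 0.31, adjusted p = 0.000443), Cxcl1 at -1.51 (SE 0.26, adjusted p = 0.000111), Ccl24 at -1.44 (SE 0.15, adjusted p = 6.46e-09) and Ppbp at -1.27 (SE 0.23, adjusted p = 0.000232). Pf4, Cxcl14, Cxcl11, Ccl3 and Ccl9 were lower, at -0.63 (Pf4) to -0.23 (Ccl9). In WT the days did not overlap for 11 of 36 members, as for 6% of all genes, and Cxcl11 and Ccl9 overlapped. Over the members the median difference was -0.14 in KO and -0.21 in WT, against -0.02 and 0.02 over all genes.

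Against WT replicates 1 to 3 of day 2, 2 members were higher and 18 lower than at day 1 (17.1% of all genes passed), and with replicates 4 to 6 0 were higher and 7 lower (10.6% passed), all 7 shared with the first set. Ccl4 was at -2.43 (adjusted p = 4.01e-09) with replicates 1 to 3 and at -0.78 (adjusted p = 0.0679) with replicates 4 to 6, where it did not pass. Leaving out 1 array at a time, Ccl9 lost its call without WT day 1 replicate 1 or 4 or day 2 replicate 5 (adjusted p up to 0.0644), and Cxcl11 in 6 of 10 fits that left out 1 array (day 1 replicates 1, 3 and 4 and day 2 replicates 1 to 3, up to 0.0943). The genotype difference of the day 2 effect was tested itself, KO minus WT. Of the 36 members 1 passed, as did 0.01% of all genes, and this was Pf4 at 0.73 (SE 0.13, adjusted p = 0.0165). Pf4 averaged 11.76 ± 0.19 at day 2 and 11.66 ± 0.11 at day 1 in KO, against 11.28 ± 0.19 and 11.91 ± 0.08 in WT (SD, n = 5, 4, 6 and 4). It was 0.63 (adjusted p = 0.00468) with WT replicates 1 to 3 and 0.84 (adjusted p = 0.00164) with 4 to 6, and the call was lost in 5 of 19 fits without 1 array (WT day 1 replicates 1 to 3, KO day 1 replicate 4 and KO day 2 replicate 3, adjusted p up to 0.0717). With replicates 1 to 3 alone, 9 members passed this interaction (5.57% of all genes), and with replicates 4 to 6 Pf4 alone did (0.015%).

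Neutrophil markers moved with the same days. Summed over 15 listed genes, their level was 12.56 to 12.81 over the 8 arrays of day 1, 11.61 to 12.08 over the Ly6C- and 11.73 to 12.49 over the Ly6C+ arrays of day 2, and 11.33 to 11.60 over the 8 arrays of day 4. Between day 2 and day 1, 5 of the 15 were lower in KO (S100a8, S100a9, Lcn2, Mmp8 and Il1r2) and 5 in WT (S100a8, S100a9, Lcn2, Il1r2 and Mmp9), and 0 were higher. Of all genes 2.58% were lower there in KO and 3.17% in WT. Ly6g, which defines neutrophils, and Cxcr2, the neutrophil receptor of these ligands, passed in neither genotype, with group means of 4.98 to 5.88 and 4.49 to 6.26. At day 4, against Ly6C+ MFs of day 2, 9 of the 15 were lower in KO, with Cxcr2, and 12 in WT, with Cxcr2 and Ly6g, and Csf3r was higher in both. Of all genes 22.5% were lower in KO and 26% in WT in that day 4 comparison. The part of neutrophils in the levels of the CXCR2 ligands was not tested.

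The third comparison set day 4 against day 2 MFs carrying the same label, Ly6C+ F4/80low. The CXCR2 ligands Cxcl3, Ppbp, Cxcl1 and Cxcl2 were lower and Ccl8 and Cxcl9 were higher at day 4 in both genotypes. In KO (n = 4 and 5) 5 members were higher and 15 lower, while 22.3% of all genes were higher and 22.5% lower. In WT (n = 4 and 6) 5 were higher and 15 lower too, while 23.8% of all genes were higher and 26% lower. All 5 that were higher, Ccl8, Cxcl9, Cxcl14, Cxcl16 and Pf4, and 14 of the 15 that were lower were shared (93.3% of either list). The median difference over the members was -0.23 in KO and -0.21 in WT, against -0.08 and -0.09 over all genes. In KO, Ccl8 was higher by 3.67 (SE 0.32, adjusted p = 1.45e-12), Cxcl9 by 3.01 (SE 0.28, adjusted p = 7.69e-12), Cxcl16 by 1.12 (SE 0.17, adjusted p = 6.25e-07), Pf4 by 0.42 (SE 0.09, adjusted p = 0.000207) and Cxcl14 by 0.36 (SE 0.14, adjusted p = 0.036). Those lower at day 4 by most were Cxcl3 at -4.05 (SE 0.28, adjusted p = 1.74e-15), Ppbp at -2.91 (SE 0.24, adjusted p = 2.73e-13), Cxcl1 at -2.29 (SE 0.27, adjusted p = 3.32e-09), Ccl4 at -1.68 (SE 0.32, adjusted p = 3.28e-05) and Cxcl2 at -1.64 (SE 0.19, adjusted p = 1.47e-09). Ccl6, Ccl9, Ccl2, Ccl7, Ccl24, Ccl3, Cxcl5, Cxcl15, Ccl26 and Cx3cl1 were lower, at -1.52 (Ccl6) to -0.24 (Cx3cl1).

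In WT, Ccl8 was higher at day 4 by 3.25 (SE 0.31, adjusted p = 1.13e-11), Cxcl9 by 3.08 (SE 0.27, adjusted p = 1.19e-12), Cxcl16 by 1.497 (SE 0.16, adjusted p = 4.05e-10), Pf4 by 0.75 (SE 0.09, adjusted p = 2.12e-09) and Cxcl14 by 0.49 (SE 0.14, adjusted p = 0.00302). Lower by most in WT were Cxcl3 at -3.56 (SE 0.27, adjusted p = 2.15e-14), Ppbp at -3.28 (SE 0.23, adjusted p = 2.05e-15), Cxcl2 at -2.09 (SE 0.18, adjusted p = 8.57e-13), Cxcl1 at -1.80 (SE 0.26, adjusted p = 2.26e-07) and Ccl6 at -1.28 (SE 0.08, adjusted p = 2.14e-17). Ccl2, Ccl7, Ccl9, Ccl24, Ccl4, Cxcl5, Cx3cl1, Cxcl12, Ccl26 and Ccl3 were lower, at -1.23 (Ccl2) to -0.21 (Ccl3). The days did not overlap for 18 of 36 members in KO and 14 in WT, as for 40.7% and 30.3% of all genes, and Cxcl14 overlapped in KO. With WT replicates 1 to 3 of day 2, 7 members were higher and 14 lower (54% of all genes passed), with replicates 4 to 6 5 were higher and 12 lower (39% passed), and 5 higher and 9 lower were shared. Some calls were lost on leaving out 1 array. In KO they were Cxcl5 (8 of 9 fits), Cxcl14 and Ccl26 (5 of 9 each), Cx3cl1 (4) and Cxcl15 (3), with adjusted p up to 0.203. In WT they were Ccl26 (6 of 10), Ccl4 and Cxcl12 (5 each) and Ccl3 (1, without day 4 replicate 2), with adjusted p up to 0.178.

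Against Ly6C- F4/80high MFs of day 2, whose Adgre1 level the day 4 arrays shared more closely, Cxcl9 was higher and the same CXCR2 ligands were lower. In KO (n = 4 and 5) 5 members were higher and 13 lower, while 13.1% of all genes were higher and 11.8% lower. In WT (n = 4 and 6) 6 were higher and 11 lower, while 14.1% of all genes were higher and 15.2% lower. Centring put 42.2% of all calls upward in KO, against 52.7% without it, and 38.1% in WT, against 48.1%. Cxcl9, Cxcl11 and Cxcl16 were higher in both genotypes (60% of the 5 in KO, 50% of the 6 in WT), and 10 members were lower in both (76.9% of the 13 in KO, 90.9% of the 11 in WT). The median difference over the members was 0.01 in KO and -0.06 in WT, against 0.01 and -0.01 over all genes. In KO, Cxcl9 was higher by 3.93 (SE 0.28, adjusted p = 1.44e-14), Ccl8 by 1.30 (SE 0.32, adjusted p = 0.00175), Ccl5 by 1.21 (SE 0.38, adjusted p = 0.0148), Cxcl16 by 0.65 (SE 0.17, adjusted p = 0.00328) and Cxcl11 by 0.58 (SE 0.16, adjusted p = 0.00553). The widest falls in KO were Cxcl3 at -3.60 (SE 0.28, adjusted p = 2.17e-13), Ppbp at -2.86 (SE 0.24, adjusted p = 1.68e-12), Cxcl1 at -2.41 (SE 0.27, adjusted p = 2.95e-09), Cxcl2 at -1.501 (SE 0.19, adjusted p = 3.32e-08) and Ccl6 at -1.20 (SE 0.08, adjusted p = 2.51e-15). Ccl4, Ccl7, Ccl2, Ccl9, Cxcl14, Pf4, Cxcl5 and Ccl3 were lower, at -0.86 (Ccl4) to -0.22 (Ccl3). In WT, Cxcl9 was higher by 4.13 (SE 0.27, adjusted p = 6.42e-16), Cxcl10 by 1.28 (SE 0.29, adjusted p = 0.000456), Cxcl16 by 0.98 (SE 0.16, adjusted p = 6.09e-06), Cxcl11 by 0.63 (SE 0.16, adjusted p = 0.0013) and Ccl1 by 0.23 (SE 0.09, adjusted p = 0.0411). The widest falls in WT were Cxcl3 at -3.55 (SE 0.27, adjusted p = 7.16e-14), Ppbp at -3.31 (SE 0.23, adjusted p = 5.10e-15), Cxcl1 at -2.24 (SE 0.26, adjusted p = 4.22e-09), Cxcl2 at -1.91 (SE 0.18, adjusted p = 2.73e-11) and Ccl7 at -1.01 (SE 0.10, adjusted p = 5.70e-11). Xcl1 was higher by 0.23, and Ccl2, Ccl6, Ccl9, Cxcl5, Pf4 and Ccl11 were lower, at -0.90 (Ccl2) to -0.30 (Ccl11).

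The days did not overlap for 16 of 36 members in KO and 13 in WT, as for 25.4% and 22.7% of all genes. Ccl8 was at 0.54 (SE 0.31, adjusted p = 0.208) in this WT comparison, so the day 4 and the Ly6C- arrays of WT were not told apart for it. With WT replicates 1 to 3 of day 2, 5 members were higher and 11 lower (34.7% of all genes passed), with replicates 4 to 6 6 were higher and 10 lower (24.1% passed), and 4 higher and 10 lower were shared. Ccl8 was -0.07 (adjusted p = 0.881) with the first set and 1.16 (adjusted p = 0.00585) with the second. Leaving out 1 array at a time ended the call of Ccl1 and of Ccl11 in 7 of 10 fits and of Xcl1 in 6 of 10 in WT (adjusted p up to 0.177). In KO it ended that of Ccl4 in 6 of 9 fits (up to 0.155) and those of Ccl3 and Cxcl14 without day 4 replicate 2 (0.0527 and 0.0529) and of Cxcl5 without Ly6C- replicate 5 (0.109).

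Summed markers of some other cells were also higher on the day 4 arrays. Summed levels at day 4 were 9.84 to 10.18 for 12 T and NK cell markers, 11.24 to 11.51 for 10 dendritic cell markers and 10.56 to 10.81 for 9 skeletal muscle markers. On the 36 earlier arrays the same sums were 9.21 to 9.62, 9.96 to 10.83 and 9.75 to 10.13. Against Ly6C- MFs, 3 of the 12 T and NK cell markers were higher in KO (Cd4, Klrb1c and Nkg7) and 5 in WT (Cd4, Ncr1, Klrb1c, Nkg7 and Gzma), while Cd3e passed in neither. Ncr1 was dim, with group means of 4.51 to 4.78. Of 9 macrophage markers, 5 were higher in KO (Adgre1, Csf1r, Mertk, C1qa and C1qc) and 7 in WT (these and Fcgr1 and C1qb), while Cd14 was lower in both. Of all genes 13.1% were higher and 11.8% lower in KO in this comparison, and 14.1% and 15.2% in WT. Against Ly6C+ MFs of day 2, 1 T and NK cell marker (Cd4) was higher and 2 (Prf1 and Tbx21) were lower in KO. In WT 3 of them were higher and 0 lower. Of the dendritic cell markers 4 were higher and 1 (Flt3) was lower there in KO. In WT 4 were higher and 4 (Flt3, Ccr7, Xcr1 and Irf4) lower. Of all genes 22.3% were higher and 22.5% lower there in KO, and 23.8% and 26% in WT. The counts of higher T and NK cell markers there were thus not clearly above these shares. The part of any of these cells in the rise of Cxcl9 and Ccl8 was not tested.

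**Figure D4:**
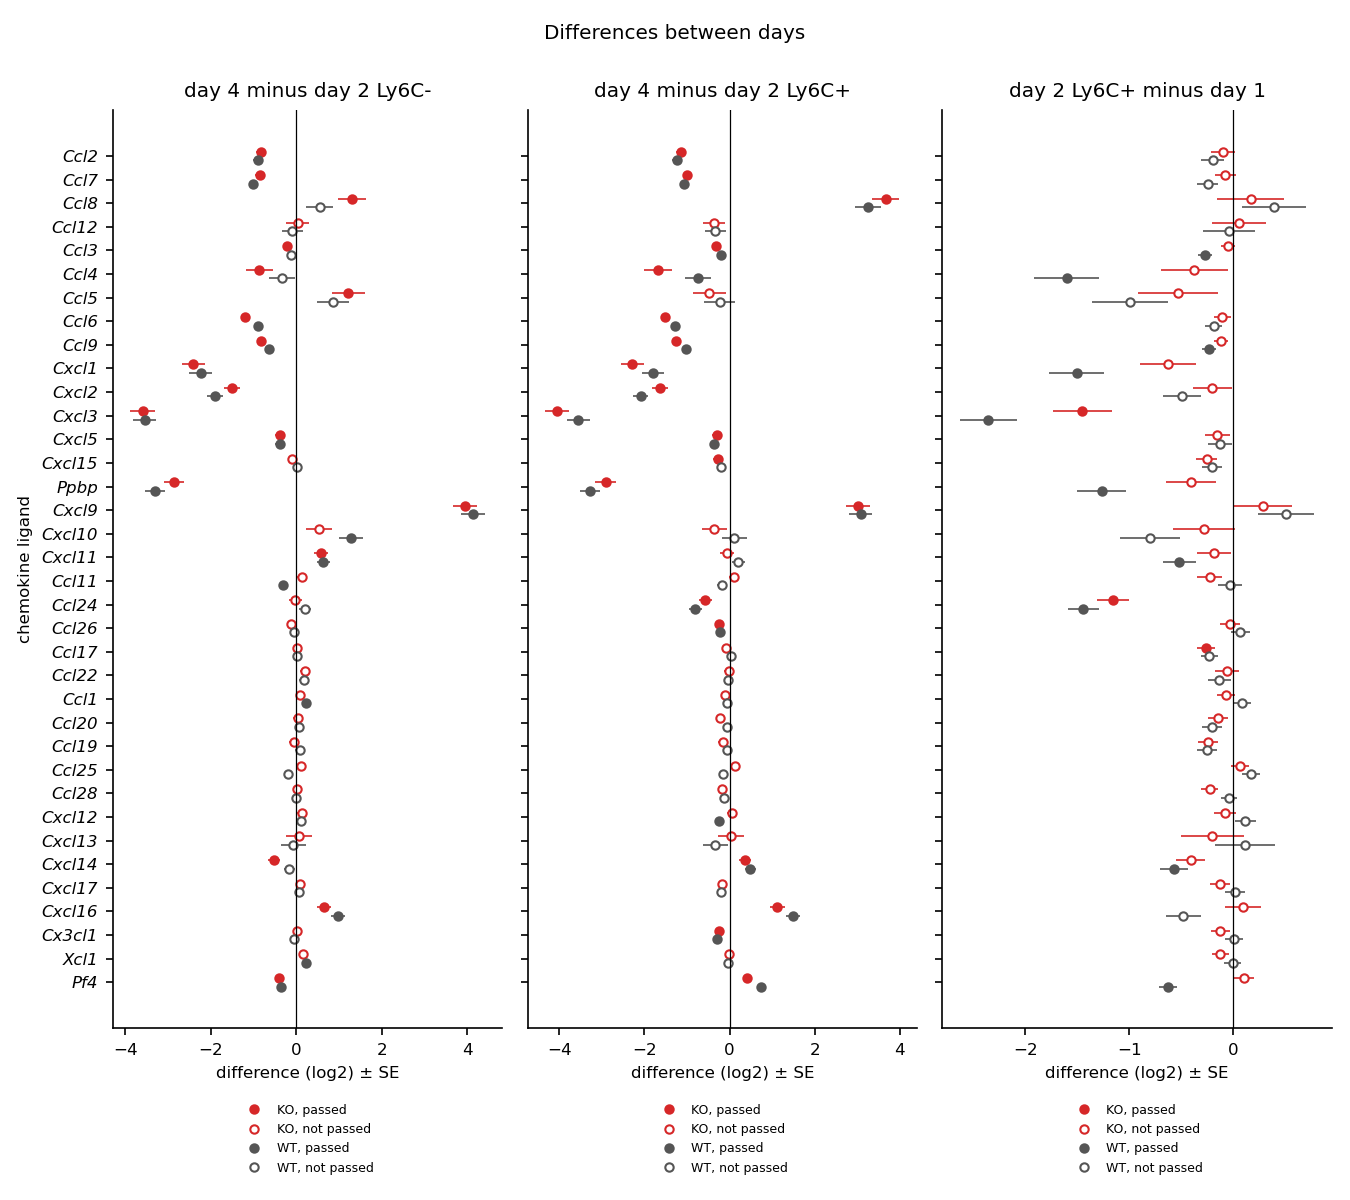
Differences between days for each of the 36 chemokine ligands (rows) in log2 units (horizontal axis, own scale per panel), with KO in red above WT in grey. Bars are the SE of the limma fit and filled points passed an adjusted p of 0.05. Cxcl9 lies at 3.93 in KO and 4.13 in WT for day 4 minus day 2 Ly6C-, and Cxcl3 at -4.05 and -3.56 for day 4 minus day 2 Ly6C+.

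The fourth comparison set KO against WT, as KO minus WT at each time. At day 4 Lyz2 was at 9.07 to 9.96 in KO and 12.81 to 13.15 in WT, apart as at day 1. Loss of Pparg and the Cre at Lyz2 cannot be told apart at these days, nor against WT replicates 4 to 6 of day 2. At day 1 (n = 4 and 4) 0 members were higher and 0 lower, while 0.0301% of all genes were higher and 0.00502% lower, and 2 of the 36 members had an unadjusted p under 0.05 in limma. In Ly6C- MFs of day 2 (n = 5 and 6) 0 were higher and 0 lower, while 0.0853% of all genes were higher and 0.115% lower (10 of 36 unadjusted), and centring put 57.1% of the few calls upward, against 42.5% without it. In Ly6C+ MFs of day 2 (n = 5 and 6) 3 were higher and 0 lower, while 1.09% of all genes were higher and 0.787% lower. Ccl4 was higher by 1.13 (SE 0.29, adjusted p = 0.0326), Pf4 by 0.48 (SE 0.08, adjusted p = 0.00124) and Ccl3 by 0.22 (SE 0.06, adjusted p = 0.0485). In a fit of only the arrays compared, 0 members passed. All 3 overlapped between the genotypes, with 4 of 5 KO arrays of Pf4, 2 of Ccl4 and 1 of Ccl3 above every WT array. Of 8 endothelial markers 4 were lower in the same comparison (Cdh5, Pecam1, Tek and Emcn), and their part was not tested. Leaving out 1 array left Pf4 alone without WT replicate 1, 2 or 3 or KO replicate 1, 2, 3 or 4, and gave 5 members without WT replicate 4 or 5 and 6 without WT replicate 6. At day 4 (n = 4 and 4) 0 were higher and 0 lower, while 0.0451% of all genes were higher and 0.0201% lower (3 of 36 unadjusted). The largest value at day 4 was Ppbp at 1.15 (SE 0.25, adjusted p = 0.0628), where all 4 KO arrays were above all 4 WT arrays, and it passed in a fit of only these 8 arrays. Without WT replicate 3, Cxcl2 passed at day 4, and without WT replicate 6, Ccl11 passed in Ly6C- MFs of day 2.

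Regardless of the fit, the genotypes did not overlap for 2 of 36 members at day 1 (Ccl5 and Pf4), as for 2.96% of all genes, for 0 in Ly6C- MFs (0.873%), for 1 in Ly6C+ MFs of day 2 (Ppbp, 1.51%) and for 1 at day 4 (Ppbp, 3.41%). The day 2 counts of calls depended on which WT replicates stood for WT. Against replicates 1 to 3, 10 members were higher and 2 lower in KO Ly6C+ MFs (15.1% of all genes passed), and 9 were higher and 3 lower in KO Ly6C- MFs (14.4% passed). Against replicates 4 to 6, 1 was higher and 0 lower in Ly6C+ MFs (1.62% passed), and 0 were higher and 0 lower in Ly6C- MFs (0.115% passed, 2 of 36 members unadjusted). Pf4 in Ly6C+ MFs was the 1 member that passed with both sets, at 0.37 (adjusted p = 0.00794) and 0.58 (adjusted p = 0.000365). Ccl4 was at 1.96 (adjusted p = 2.50e-07) against replicates 1 to 3 and 0.30 (adjusted p = 0.672) against 4 to 6, and Ccl3 at 0.33 (adjusted p = 0.000155) and 0.11 (adjusted p = 0.49). Ppbp in Ly6C- MFs was at 1.13 (adjusted p = 0.000622) and 0.25 (adjusted p = 1), and Ccl5 at -1.16 (adjusted p = 0.000226) and 0.08 (adjusted p = 1), so that both genes passed only against replicates 1 to 3. With all WT arrays, Ccl3 lost its call in 8 of 11 fits that left out 1 array (all 5 KO arrays and WT replicates 1 to 3) and Ccl4 in 7 of 11 (KO replicates 1 to 4 and WT replicates 1 to 3, adjusted p up to 0.135 and 0.0992).

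The last comparison asked what rosiglitazone changed in WT MFs of day 2, as treated minus non-treated. The non-treated arrays mix both replicate sets, of which 4 to 6 shared the high Lyz2 level of the treated arrays. In Ly6C- MFs (n = 3 and 6) 0 members were higher and 0 lower, while 0.015% of all genes were higher and 0.0201% lower (6 of 36 members had an unadjusted p under 0.05). In Ly6C+ MFs (n = 3 and 6) 1 was higher and 3 lower, while 5.52% of all genes were higher and 5.6% lower. Centring put 66.5% of all calls upward there, against 49.6% without it. Ccl9 was higher by 0.31 (SE 0.07, adjusted p = 0.00533), with all 3 treated arrays above every non-treated array, and it was the 1 of 36 members without overlap (5.65% of all genes). In Ly6C- MFs 0 of 36 were without overlap (1.7% of all genes). The 3 that fell were Ccl5 at -1.95 (SE 0.40, adjusted p = 0.00158), Ccl8 at -1.01 (SE 0.34, adjusted p = 0.0462) and Cxcl12 at -0.35 (SE 0.11, adjusted p = 0.0307), and each overlapped with the non-treated arrays. In the same comparison 3 of 8 endothelial markers (Cdh5, Pecam1 and Kdr) and 2 of 10 dendritic cell markers (Ccr7 and Irf4) were lower, and 2 of 15 neutrophil markers (Lcn2 and Mmp8) were higher. Their part in these differences was not tested. Against WT replicates 1 to 3, 4 members were higher and 4 lower in Ly6C+ MFs (27.3% of all genes passed), and 3 were higher and 2 lower in Ly6C- MFs (12.8% passed). Against replicates 4 to 6, 1 was higher and 2 lower in Ly6C+ MFs (1.55% passed), and 0 passed in Ly6C- MFs (0.015% passed, 3 of 36 members unadjusted). The 2 members that passed with both sets in Ly6C+ MFs were Ccl9, at 0.29 (adjusted p = 0.00205) and 0.32 (adjusted p = 0.0436), and Ccl5, at -2.14 (adjusted p = 1.52e-08) and -1.76 (adjusted p = 0.0388). Cxcl16 passed in Ly6C+ MFs only against replicates 4 to 6, at -0.72 (adjusted p = 0.0428) beside -0.13 (adjusted p = 0.415) for 1 to 3. Ccl8 and Cxcl12 passed only against replicates 1 to 3, at -1.42 (adjusted p = 0.000407) and -0.61 (adjusted p = 3.56e-06), beside -0.60 (adjusted p = 0.411) and -0.10 (adjusted p = 0.699) for 4 to 6. Each also lost its call in 6 of 9 fits that left out 1 array, Ccl8 without rosiglitazone replicates 1 and 2 or WT replicates 1, 2, 3 and 5 and Cxcl12 without any rosiglitazone array or WT replicates 1 to 3 (adjusted p up to 0.23 and 0.114). Without WT replicate 4, which had the low Ccl5 value, 7 members passed. In a fit of only the arrays compared, 0 members passed. In Ly6C- MFs, Ccl5 passed without WT replicate 4 and Cxcl10 without rosiglitazone replicate 3.

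**Figure D5:**
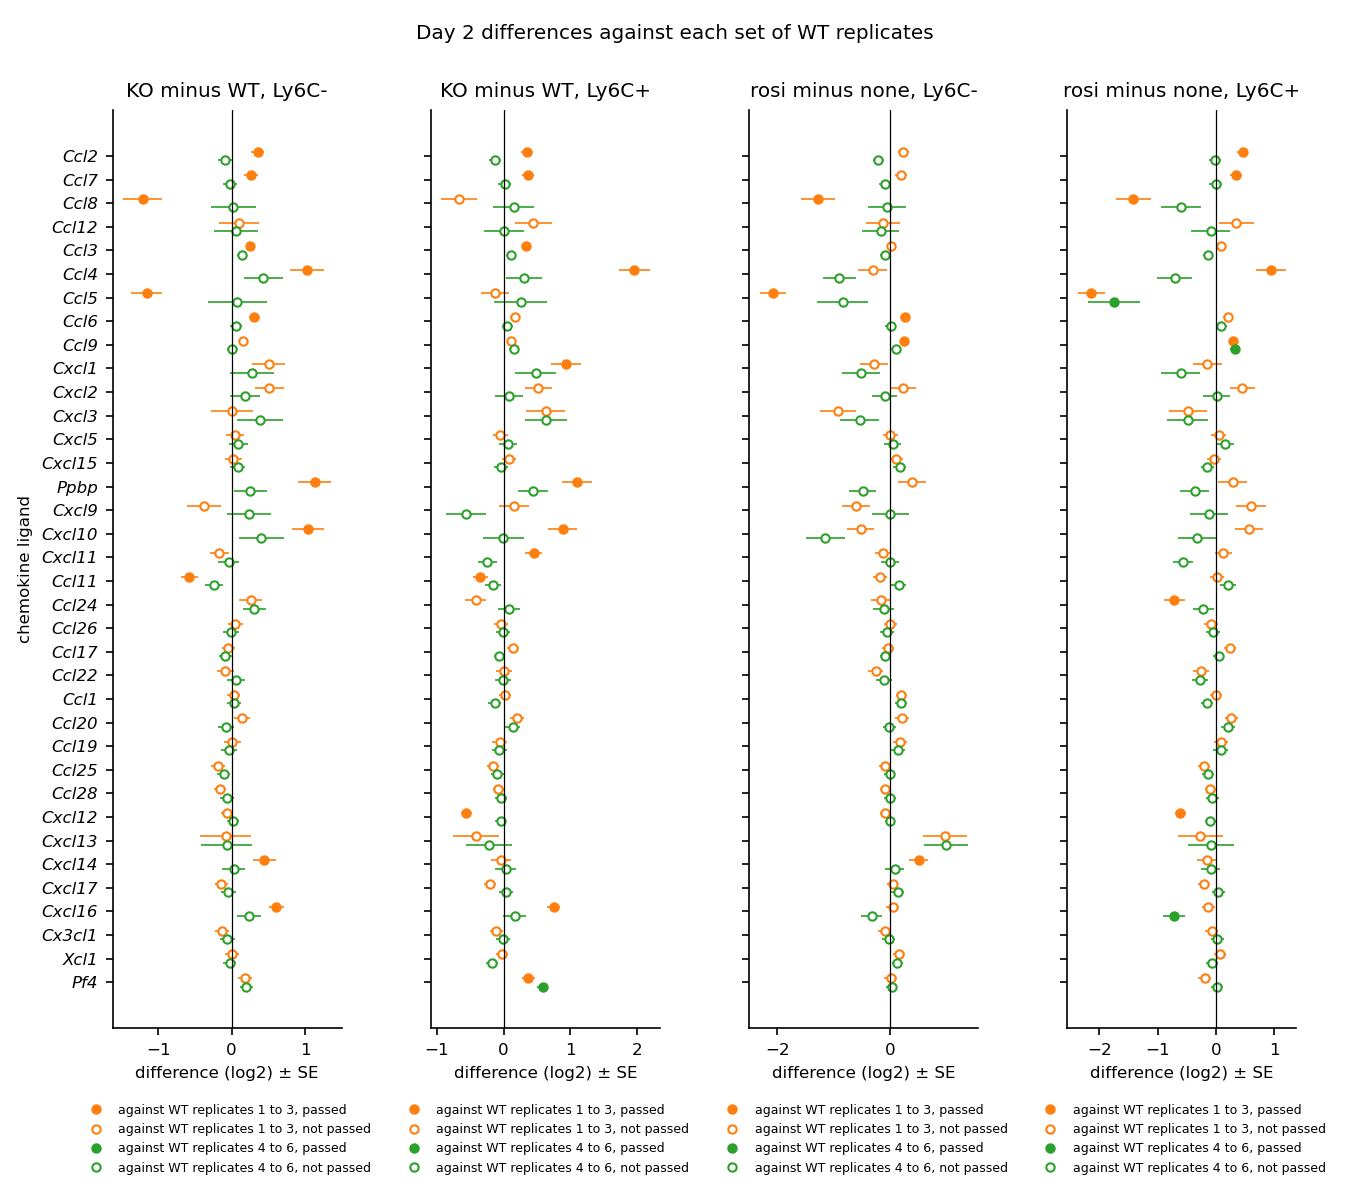
Day 2 differences of each of the 36 chemokine ligands (rows) in log2 units (horizontal axis, own scale per panel), KO minus WT and rosiglitazone minus non-treated, in each subset. Orange points use WT replicates 1 to 3 and green points replicates 4 to 6, bars are the SE of the limma fit and filled points passed an adjusted p of 0.05. In Ly6C+ MFs Pf4 passed for KO with both sets, at 0.37 and 0.58.

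Of the 23 receptor genes listed, 22 were analysed here. Their calls use all WT arrays and are not given for either replicate set of WT day 2, a choice that changed many day 2 counts of the ligands. With rosiglitazone 0 receptors were higher and 4 lower in Ly6C- than in Ly6C+ MFs, in KO 1 was higher and 7 lower, and in WT 1 was higher and 13 lower. Of all genes 14.6%, 19.8% and 22.2% were higher and 8.68%, 18.6% and 23% lower there. Ccr1, Ccr2 and Cxcr2 were lower in all 3. Ccr2, the receptor that brings monocytes out of the blood, was at -2.72 (SE 0.15, adjusted p = 1.58e-17) with rosiglitazone, -1.91 (SE 0.12, adjusted p = 2.38e-16) in KO and -1.93 (SE 0.11, adjusted p = 4.26e-18) in WT. Cxcr3, the receptor of Cxcl9, Cxcl10 and Cxcl11, was higher in Ly6C- MFs by 0.45 (SE 0.09, adjusted p = 0.000186) in KO and 0.40 (SE 0.09, adjusted p = 0.0002) in WT, where all 3 of its ligands were lower. At day 4, against Ly6C+ MFs of day 2, 3 receptors were higher and 8 lower in KO (22.3% and 22.5% of all genes), and 2 were higher and 11 lower in WT (23.8% and 26%). Cx3cr1, the fractalkine receptor of patrolling monocytes, was higher by 1.88 (SE 0.19, adjusted p = 9.48e-11) in KO and 1.66 (SE 0.19, adjusted p = 6.65e-10) in WT. Its ligand Cx3cl1 was lower by far less and lay outside the brighter 9969 genes. In fits that left out 1 array, Cx3cl1 was at -0.30 to -0.16 in KO and -0.34 to -0.25 in WT. The call of Cx3cl1 was lost in 4 of 9 such fits in KO (adjusted p up to 0.203) and in 0 of 10 in WT. Against Ly6C- MFs of day 2, 4 receptors were higher and 2 lower in KO (13.1% and 11.8% of all genes), and 3 were higher and 2 lower in WT (14.1% and 15.2%). Ccr2, Cxcr3 and Cx3cr1 were higher and Ccr1 and Ccrl2 lower in both. Between day 2 and day 1, 1 was higher and 1 lower in KO (6.06% and 2.58% of all genes), and 2 were higher and 2 lower in WT (6.51% and 3.17%). KO minus WT gave 1 receptor in Ly6C+ MFs of day 2, Xcr1, which was lower (0.787% of all genes), and 0 in the other groups. Rosiglitazone gave 0 in Ly6C- MFs and 3 lower in Ly6C+ MFs (Ccr7, Cxcr4 and Cxcr5, beside 5.6% of all genes).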

How the data were processed

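RNA of sorted MFs was amplified and labelled from 150 ng per sample and hybridised to 44 one-colour Affymetrix arrays. The authors deposited 1 log2 value per probe set and array, made by RMA (background correction, quantile normalization and summary of probes), which pulls extreme values together and compresses differences of dim and of saturated genes. Software version and probe set definition: not given in the sources used here. Array medians ran from 6.64 to 6.77, arrays correlated at 0.935 to 0.996, and no 2 were identical. Arrays carry no read depth, so their number limits the precision.

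Probe sets with 1 gene symbol (21789 of 35556) gave 19938 genes, each read from its probe set of highest mean. All genes were fitted in limma 3.58.1 (R 4.3.3) with 1 mean per group over all 44 arrays (34 residual and 6.46 prior degrees of freedom), with two-sided moderated tests adjusted by Benjamini and Hochberg over all genes at 0.05. The fit was tested on simulated data. Differences are on the log2 scale, as named in each comparison, and values for a replicate set of WT come from a fit without the other set. Comparisons that share a group share its arrays. Genes with full statistics are the 5 largest calls per direction in each comparison, and per-array values are given for the 12 members with the widest range of group means. The members and lists were chosen with earlier results of these data known. Neither a batch nor a scan date is named in the labels. Replicate numbers paired all arrays only in the rosiglitazone subset comparison (deviations of same-numbered arrays correlated at 0.134 to 0.443, each best with its own number). Pairing was partial in the other subset comparisons. In KO 4 of 5 pairs (0.043 to 0.285) and in WT 3 of 6 (0.011 to 0.600) were best with their own number. The main fit treated all arrays as unpaired. Alternatives were median centring, only the arrays compared, the brighter 9969 genes, the replicate number as a block, each WT day 2 set and each array left out.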

Additional observations from a re-analysis of the deposited data

Results flagged for a closer look

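In 96 groups of 4 to 6 arrays, over the 12 members of widest range, 9 held an array far from the rest, and chance gives about 1 such group in 20. Among KO arrays of day 2, replicate 5 of the Ly6C- subset was high for Cxcl3 at 10.228 (others 9.01 to 9.31) and for Cxcl2 at 12.775 (others 12.61 to 12.64), and replicate 5 of the Ly6C+ subset was high for Ccl5 at 10.94 (others 9.81 to 10.13). Among KO arrays of day 4, replicate 4 was low for Cxcl9 at 9.4817 (others 10.61 to 10.80) and for Ccl5 at 9.1978 (others 9.77 to 9.88). Among WT Ly6C+ arrays of day 2, replicate 4 was low for Ccl5 at 7.8197 (others 10.03 to 11.02) and high for Ccl6 at 12.83 (others 12.54 to 12.64), and replicate 5 was high for Cxcl9 at 9.1855 (others 7.06 to 7.39). Replicate 4 of the WT Ly6C- subset was low for Cxcl3 at 8.2136 (others 9.15 to 9.61). The day 2 minus day 1 difference of Pf4 was larger in KO than in WT by 0.73159 on the log2 scale in a test of that difference (adjusted p = 0.0165, limma).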

How the results depend on the processing

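Over 83 results for single members and their alternative values, 1109 kept direction and side of the threshold, 95 kept direction but not the threshold, and none changed direction. These 83 are only the calls with full statistics, the 5 largest per direction in each comparison. Smaller calls, several of which were often lost without 1 array, are outside this tally. The alternatives include the fits without 1 array, which share nearly all arrays with the main fit. Counts of members that passed changed by over 1.5 times in these cases. In fits of only the arrays compared, 10 members passed for WT Ly6C- minus Ly6C+, 8 for KO day 2 minus day 1, 0 for KO minus WT in Ly6C+ MFs of day 2, 1 for KO minus WT at day 4 and 0 for rosiglitazone in Ly6C+ MFs. With WT day 2 replicates 1 to 3, the counts were 11 for WT Ly6C- minus Ly6C+, 20 for WT day 2 minus day 1, 12 for KO minus WT in Ly6C- and 12 in Ly6C+ MFs, 5 for rosiglitazone in Ly6C- and 8 in Ly6C+ MFs, 1 for the rosiglitazone by subset interaction and 9 for the genotype by day interaction. With replicates 4 to 6, 1 passed for KO minus WT in Ly6C+ MFs. The cause was not tested. Median centring and the brighter 9969 genes, which keep 23 of the 36 members, moved no count that far. Leaving out 1 array gave 17 to 19 for WT Ly6C- minus Ly6C+, 12 to 17 for KO and 10 to 12 for rosiglitazone, 8 to 13 for day 2 minus day 1 in WT and 2 to 5 in KO, and 18 to 20 in WT and 15 to 20 in KO for day 4 minus Ly6C+ MFs of day 2. It gave 14 to 17 in WT and 15 to 18 in KO for day 4 minus Ly6C- MFs, 0 to 0, 0 to 1, 1 to 6 and 0 to 1 for KO minus WT at day 1, in Ly6C- and Ly6C+ MFs of day 2 and at day 4, 0 to 1 and 2 to 7 for rosiglitazone in Ly6C- and Ly6C+ MFs, and 0 to 1 for the genotype by day interaction.

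With the replicate number as a replicate block, 9 members passed for KO day 2 minus day 1, 6 for KO minus WT in Ly6C- MFs, 1 in Ly6C+ MFs (Ppbp) and 1 at day 4 (Ppbp), 3 for rosiglitazone in Ly6C- MFs and 11 in Ly6C+ MFs. In these comparisons same-numbered arrays correlated at -0.369 to 0.257 and arrays did not all match their own number best, so they share only a number. In the paired rosiglitazone subset comparison the block changed no call of a named member. For Ly6C- minus Ly6C+ the block gave 21 members in KO, against 16 without it. It gave 18 in WT, the same as without it, and 13 with rosiglitazone, against 11. The share of all genes that passed is not given for block fits, fits of only the arrays compared or fits without 1 array. Whether those counts follow a change over all genes therefore cannot be told.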
